A study of Mus musculus with 6 samples.

Results

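This report follows 10 interferon-induced genes of membrane and antiviral defence in SB28 cells, a mouse glioma line: Ifitm1, Ifitm2, Ifitm3, Bst2, Ifi27, Ifi27l2a, Ifi35, Ifi44, Xaf1 and Samd9l. They were chosen as the rows of the deposited count table with these symbols, and all 10 were found among its 55453 rows. The libraries were poly(A)-selected RNA, 3 labelled PP2AcKO with the genotype PP2A KO and 3 labelled PP2AcWT with the wild-type genotype, all with SB28 as source and C57BL/6 as strain. PP2Ac is the catalytic subunit of protein phosphatase 2A. The series' design text describes SB28 tumours taken from the brain or from under the skin 18 days after implantation, the hosts being wild-type mice or mice whose floxed PP2Ac is deleted by LysM-driven Cre, which is active in myeloid cells. The sample labels do not say which tumour site, host or culture a library came from, how the knockout was made or whether it rests on a single clone. PP2AcKO and PP2AcWT are therefore used as the names of the labelled groups.

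Type I interferon binds its receptor at the cell surface and activates a transcription factor complex that includes Stat2 and Irf9 and binds interferon-stimulated response elements at its target genes. IFITM proteins sit in cell membranes and hinder the fusion of viruses with them, Ifitm3 mainly in endosomes. Tetherin, the product of Bst2, holds budding virus particles at the cell surface. The other genes encode small hydrophobic proteins of the Ifi27 family, the cytoplasmic proteins Ifi35 and Ifi44, the apoptosis-linked protein Xaf1 and the antiviral growth restrictor Samd9l.

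Of the 10 genes 8 were higher and 2 were lower in PP2AcKO, and each passed edgeR's quasi-likelihood test at an adjusted p under 0.05 (Benjamini-Hochberg adjustment over 14877 genes; levels below are in CPM, counts brought to a common library size). Calls were common in this comparison: 31.9% of all tested genes were called higher in PP2AcKO and 32.1% lower, 64.0% in all. The 10 genes had a median log2 fold change of 1.52 (PP2AcKO over PP2AcWT, as throughout), against -0.01 for all tested genes, with a range from -1.64 for Ifitm1 to 3.44 for Ifi44. The CPM of the groups did not overlap for any of the 10, in 8 with PP2AcKO above and in 2 with it below. Of all tested genes 33.9% had PP2AcKO above and 34.4% below without overlap, 68.3% in all. A higher level in such bulk libraries may mean more RNA per cell or more cells of a kind that makes it, and these cannot be told apart here.

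**Figure D1:**
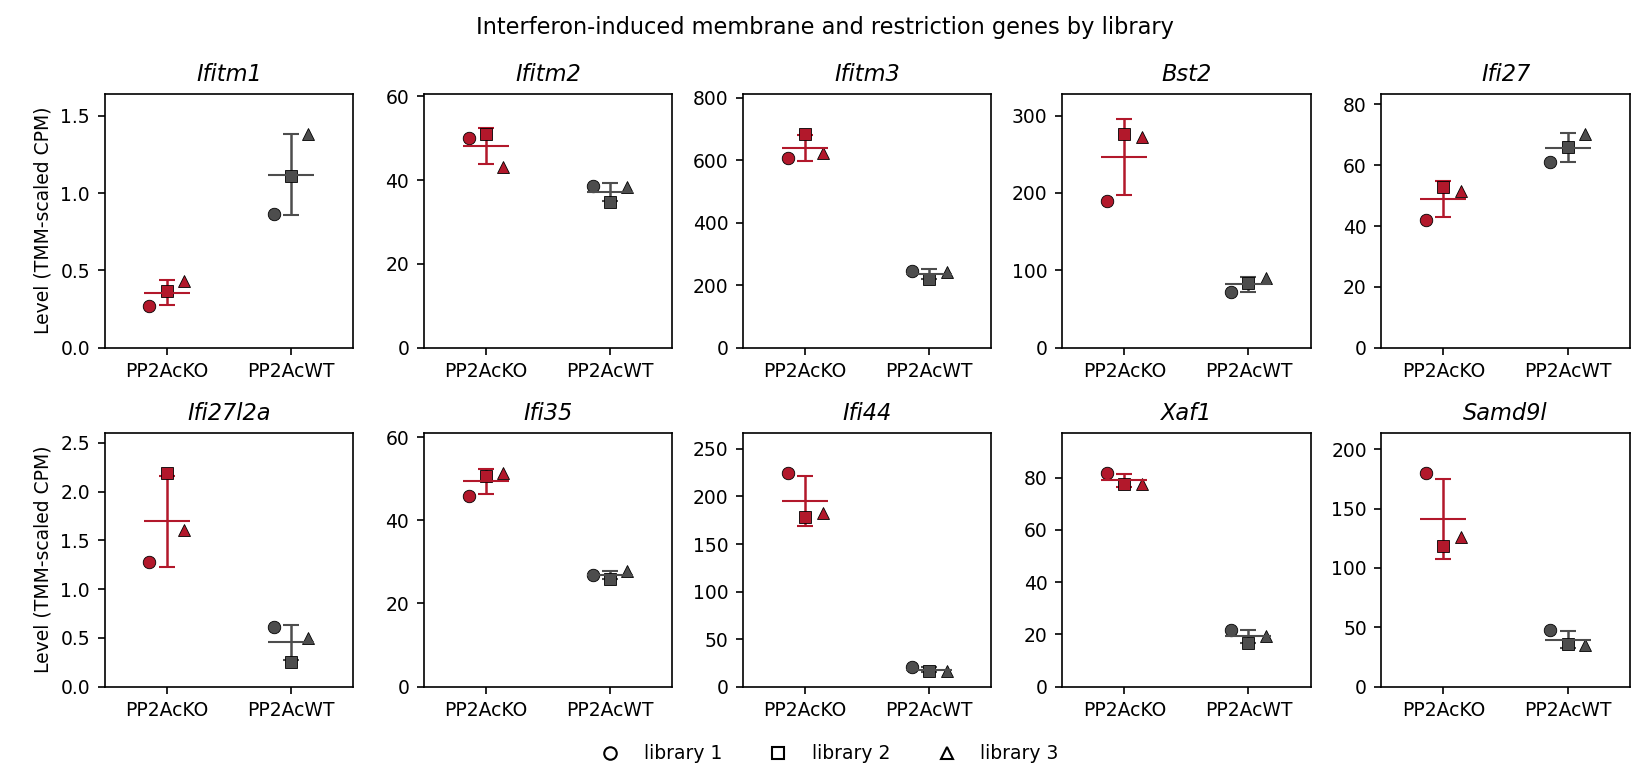
Level of each of the 10 genes in every library, in CPM after TMM scaling (vertical axis from 0, a scale of its own in each panel), PP2AcKO in red and PP2AcWT in grey. Points are libraries 1, 2 and 3, the horizontal bar is the mean and the whiskers 1 SD (n = 3); Ifitm1 and Ifi27 are lower in PP2AcKO and the other 8 genes higher, with no overlap.

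Library totals ran from 40245915 to 46149908 counts in PP2AcKO and from 38735864 to 49344079 in PP2AcWT. The labels PP2AcKO and PP2A KO do not name the gene that was deleted. Ppp2ca, which encodes a catalytic subunit of protein phosphatase 2A, was at 217, 187 and 193 CPM in PP2AcKO 1, 2 and 3. In PP2AcWT 1, 2 and 3 it was at 274, 244 and 247 CPM. Its log2 fold change was -0.36 (standard error 0.08; adjusted p = 0.00377). Ppp2cb, which encodes the other catalytic subunit, averaged 125 ± 2.05 CPM in PP2AcKO and 85.9 ± 2.28 CPM in PP2AcWT (SD, n = 3), and its log2 fold change was 0.54 (standard error 0.06; adjusted p = 6.34e-05). The table gives 1 count for the whole of Ppp2ca, so it does not show whether a deleted exon is missing. Libraries numbered 1 stood apart in both groups: their chi-square per degree of freedom against libraries 2 and 3 was 42.1 to 48.4 in PP2AcKO and 29.7 to 40.8 in PP2AcWT, while libraries 2 and 3 gave 3.41 and 4.61 between themselves. Without both libraries numbered 1, all 10 genes were still called in the same direction, 8 higher and 2 lower, in a fit that called 74.6% of all genes. Markers of glioma and glia, 12 genes, summed to 3484 to 3515 CPM in PP2AcKO and 6506 to 6597 CPM in PP2AcWT, with Olig1, Olig2 and Sox10 at 0. Of the 8 that were tested 2 rose and 5 fell. The most abundant, the filament gene Vim, averaged 1882 ± 64.7 CPM in PP2AcKO and 4791 ± 98.3 CPM in PP2AcWT (SD, n = 3). Nes, Egfr and Cspg4 had log2 fold changes of -1.16, -2.08 and -6.05, and Sox2 of -0.57. The 2 that rose were Pdgfra (0.30) and Nras (0.29), and Cd44 (0.06) did not pass. All 10 lymphoid markers averaged under 1 CPM, summing to 0.0488 to 0.128 CPM in PP2AcKO and 0 to 0.0979 CPM in PP2AcWT, with Cd3e, Cd3g, Cd8a, Cd2, Ncr1 and Ms4a1 among those at 0. Of 12 myeloid markers 10 were under 1 CPM, with Adgre1 and Tyrobp at 0. The list summed to 51.6 to 57.6 CPM in PP2AcKO and 14.2 to 16.1 CPM in PP2AcWT. Most of it was Cd14 at 46.3, 52.5 and 49.4 CPM in PP2AcKO and 10.9, 10.5 and 12.4 CPM in PP2AcWT. Cd14 and Cd68 were the 2 tested, and both rose. Of those too rare to test, Lyz2 (44 counts in PP2AcKO, 1 in PP2AcWT) and Fcer1g (37 and 16) were higher without overlap. Ptprc (11 and 31) was lower without overlap, and the groups overlapped in the rest. Neutrophil markers summed to 3.36 to 4.01 CPM in PP2AcKO and 0.0454 to 0.0979 CPM in PP2AcWT, with S100a9, Csf3r and Mpo at 0; S100a8, at 3.27 to 3.73 CPM in PP2AcKO and 0.0392 to 0.0504 CPM in PP2AcWT, made up most of the sum in PP2AcKO. Endothelial markers summed to 424 to 462 CPM in PP2AcKO and 400 to 431 CPM in PP2AcWT, nearly all Cdh5, with Cldn5 at 0. Of the 5 tested, Vwf, at 5.69 ± 0.382 CPM in PP2AcKO and 0.650 ± 0.112 CPM in PP2AcWT, and Kdr, at 7.78 ± 0.402 CPM in PP2AcKO and 1.65 ± 0.331 CPM in PP2AcWT (SD, n = 3), rose, while Tek fell. Stromal markers summed to 1262 to 1830 CPM in PP2AcKO and 1591 to 2272 CPM in PP2AcWT, mostly Col1a1, which did not pass the test. Of the other stromal markers Dcn, at 32.7 ± 4.54 CPM in PP2AcKO and 1.27 ± 0.351 CPM in PP2AcWT (SD, n = 3), and Pdgfrb (log2 fold change 0.67) rose, and Rgs5 fell. Neuron and macroglia markers summed to 4.75 to 5.83 CPM in PP2AcKO and 12.3 to 14.3 CPM in PP2AcWT, with Rbfox3 and Aqp4 at 0, and erythroid markers to at most 0.0256 CPM in PP2AcKO and 0.101 CPM in PP2AcWT. The part of these marker differences in the results for the 10 genes was not tested.

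The response element recognised by the interferon-activated complex is built on a GAAA repeat, so the sequence around the gene starts was searched for it. RefSeq windows (GRCm38.p6), from 250 bases before to 50 after a start, were at hand for 8 of the 10 genes, all but Ifi27 and Ifi27l2a. The motif GAAANNGAAA on either strand stood in the windows of Ifitm2, Ifitm3 and Bst2, 3 of 8 genes. It stood in 3.44% of all 32851 windows, and 3.99% of the 27025 genes with a window had it in any. The variant with 1 base between the repeats, GAAANGAAA, was added after the sequences had been seen. It stood in the windows of Ifi35, Ifi44 and Xaf1, in 3.17% of all windows and in 3.7% of all genes with a window. The sites are shown because they separate these genes by the spacing of the repeat; each is on the strand of its gene, with the matches in capitals and, in Ifi44, on the reverse strand.
Bst2 site, chr8:71537580-71537609, minus strand: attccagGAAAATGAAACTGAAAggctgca
Ifitm2 site, chr7:140955988-140956017, minus strand: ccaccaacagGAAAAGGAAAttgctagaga
Ifitm3 site, chr7:141010714-141010743, minus strand: gGAAAAGGAAActtctgaGAAACCGAAAct
Ifi44 site, chr3:151749939-151749968, minus strand: gagtttcagtTTTCGTTTCccgagcaggat
Ifi35 site, chr11:101448415-101448444, plus strand: agaattcacaGAAATGAAAgtggaagtgag
Xaf1 site, chr11:72301629-72301658, plus strand: tgtgtgcaaaGAAACGAAActccacagaag

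Bst2 and Ifitm3 each held 2 matches to GAAANNGAAA, overlapping each other in Bst2. The first and last matched bases lay at -130 and -115 from the start in Bst2, at 3 and 29 in Ifitm3 and at -46 and -37 in Ifitm2. The spacing variant lay at -48 to -40 in Ifi44, at 14 to 22 in Ifi35 and at 11 to 19 in Xaf1. GENCODE has Ifi44 reach to 151749960, so its match, upstream of the RefSeq start, lies inside the gene as annotated there. The 8-base core AANNGAAA, part of every GAAANNGAAA match, stood in the windows of 7 of the 8 genes. It was in 23.9% of all windows and in 26.7% of all genes with a window. Samd9l held only this core, and Ifitm1 held no match to any of these 3 motifs. For Ifitm1, which fell, the stretch from -150 to -51 is shown for comparison; GENCODE places starts of Ifitm1 on either side of this stretch.
Ifitm1 upstream stretch, chr7:140967926-140968025, plus strand: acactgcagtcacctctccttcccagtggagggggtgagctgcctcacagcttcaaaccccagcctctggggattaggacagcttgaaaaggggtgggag

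For comparison, among the 59 other interferon-stimulated genes with a window, 54.2% held GAAANNGAAA, 16.9% the variant, 81.4% the 8-base core and 18.6% TTCNNNGAA. The genes of that list are known targets of the pathway. TTCNNNGAA, also searched for, stood in the windows of Ifitm3, Bst2 and Ifi35, 3 of the 8 genes. It was in 8.3% of all windows and in 9.55% of all genes with a window. A match is a description of the letters in the window and not evidence of binding.

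**Figure D2:**
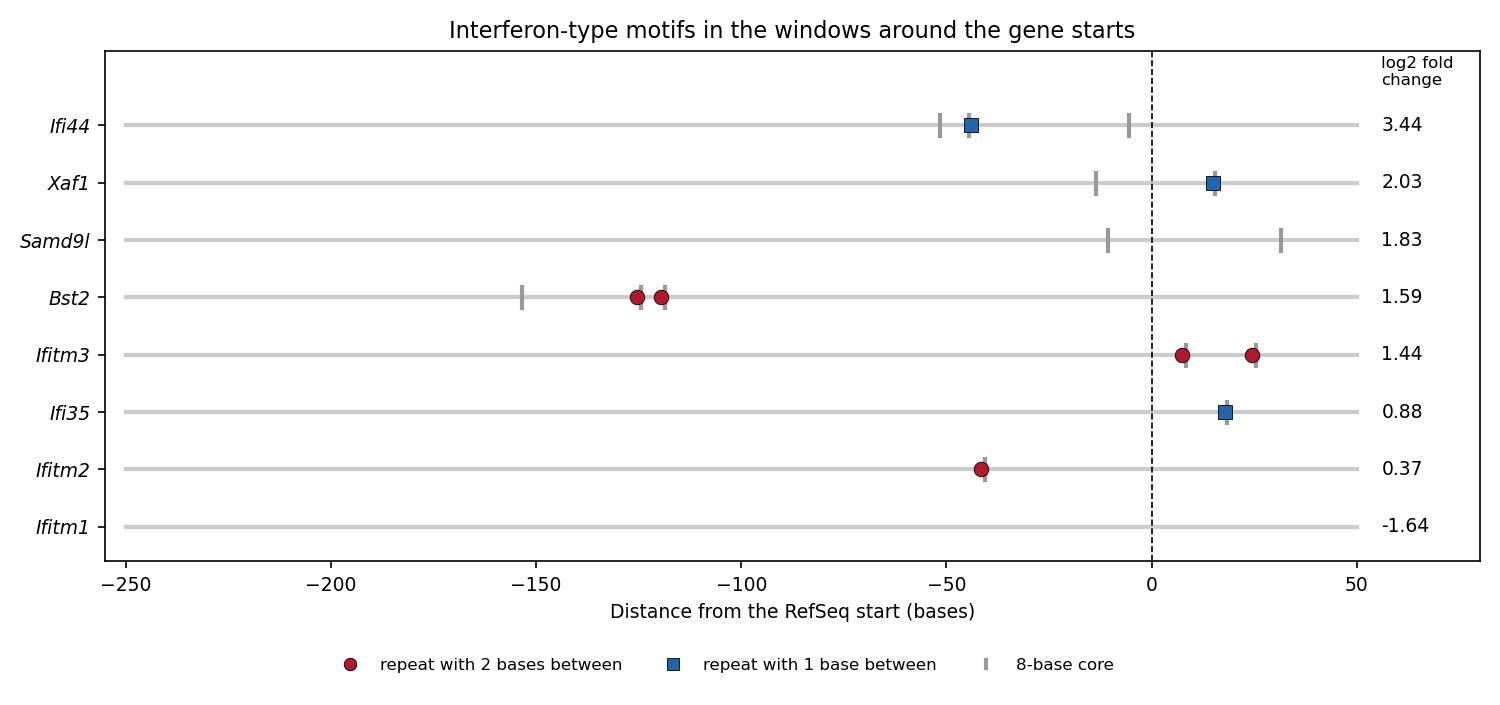
Positions of motif matches in the windows of 8 genes (horizontal axis, distance in bases from the RefSeq start; the grey line is the window searched), ordered from the highest to the lowest log2 fold change, PP2AcKO over PP2AcWT, printed at the right. Red circles mark the GAAA repeat with 2 bases between, blue squares that with 1 base between and grey ticks the 8-base core; Ifitm1 has none.

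The IFITM genes did not move together. Ifitm3 had 608, 685 and 622 CPM in PP2AcKO 1, 2 and 3, against 245, 218 and 243 CPM in PP2AcWT 1, 2 and 3. Every PP2AcKO library was more than 2-fold above every PP2AcWT library. The means were 638 ± 41.0 CPM in PP2AcKO and 236 ± 15.0 CPM in PP2AcWT (SD, n = 3), and the log2 fold change was 1.44 (standard error 0.08; adjusted p = 6.1e-07). Ifitm3 (ENSMUSG00000025492.6) lies on chromosome 7 from 141009586 to 141010770, minus strand, in GENCODE M21 on GRCm38, and 10.02% of its 50-base stretches recur in transcripts of other genes.

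Ifitm2, which encodes a close relative of Ifitm3, had 49.99, 51.1 and 43.2 CPM in PP2AcKO, against 38.6, 34.8 and 38.4 CPM in PP2AcWT. The groups stood apart by less than in Ifitm3, with PP2AcKO 3 nearest to the PP2AcWT libraries. The means were 48.1 ± 4.30 CPM in PP2AcKO and 37.3 ± 2.12 CPM in PP2AcWT (SD, n = 3), and the log2 fold change was 0.37 (standard error 0.09; adjusted p = 0.00515). This call was lost against a fold change of 1.5, a test that called 8 of the 10 genes and 26.7% of all genes. The count of Ifitm2 (ENSMUSG00000060591.9, chromosome 7, 140954837 to 140955987, minus strand) is uncertain. Exons of Gm45717, annotated on the same strand, cover 40.9% of its exon bases, and 48.5% of its 50-base stretches recur in transcripts of other genes. Gm45717 itself had 0 counts in all 6 libraries.

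Ifitm1, whose product is found mostly at the cell surface, was rare and went the other way. It had 12, 15 and 17 counts in PP2AcKO 1, 2 and 3, against 44, 49 and 55 counts in PP2AcWT 1, 2 and 3. On the CPM scale these were 0.269, 0.366 and 0.434 in PP2AcKO and 0.862, 1.11 and 1.39 in PP2AcWT, so every PP2AcKO library lay below every PP2AcWT library. Ifitm1 fell by 1.64 in log2 terms (standard error 0.28; adjusted p = 0.000787), 3.12-fold lower in PP2AcKO. The gene (ENSMUSG00000025491.14, chromosome 7, 140967221 to 140969825, plus strand) lies between Ifitm2, 11233 bases away, and Ifitm3, 39760 bases away. Ifitm1 thus fell between 2 members of the family that rose.

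Within the summed counts of Ifitm1, Ifitm2 and Ifitm3, Ifitm3 took 92.4%, 93.0% and 93.4% in PP2AcKO, against 86.1%, 85.9% and 86.0% in PP2AcWT. The difference was 6.95 percentage points, 92.9 ± 0.542% in PP2AcKO and 86.0 ± 0.131% in PP2AcWT (SD, n = 3; two-sided exact permutation test p = 0.1, the smallest this design allows). The share of Ifitm2 was 7.01 ± 0.554% in PP2AcKO and 13.6 ± 0.0792% in PP2AcWT (SD, n = 3). A share of this kind does not depend on how libraries are scaled to each other. It does depend on how reads common to these similar genes were assigned.

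Relatives outside the chosen genes also differed among themselves. Ifitm6, next to Ifitm3 at a distance of 4928 bases, had 3.07, 2.95 and 3.02 CPM in PP2AcKO, against 0.509, 0.408 and 0.227 CPM in PP2AcWT. It rose by 2.94 in log2 terms (standard error 0.23; adjusted p = 5.56e-06). Ifitm10, farther along chromosome 7, had 0.896, 1.15 and 0.767 CPM in PP2AcKO, against 3.13, 2.74 and 3.475 CPM in PP2AcWT, and fell by 1.73 (standard error 0.18; adjusted p = 4.24e-05). Ifitm7 on chromosome 16 was below the filter, with 2 counts in PP2AcKO against 23 in PP2AcWT, a ratio of 0.094 (95% exact counting interval 0.0107 to 0.381). Ifitm5, a bone-linked member of the family, had 28 counts in PP2AcKO and 22 in PP2AcWT, a ratio of 1.38 (interval 0.759 to 2.52) that counting error alone could span.

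**Figure D3:**
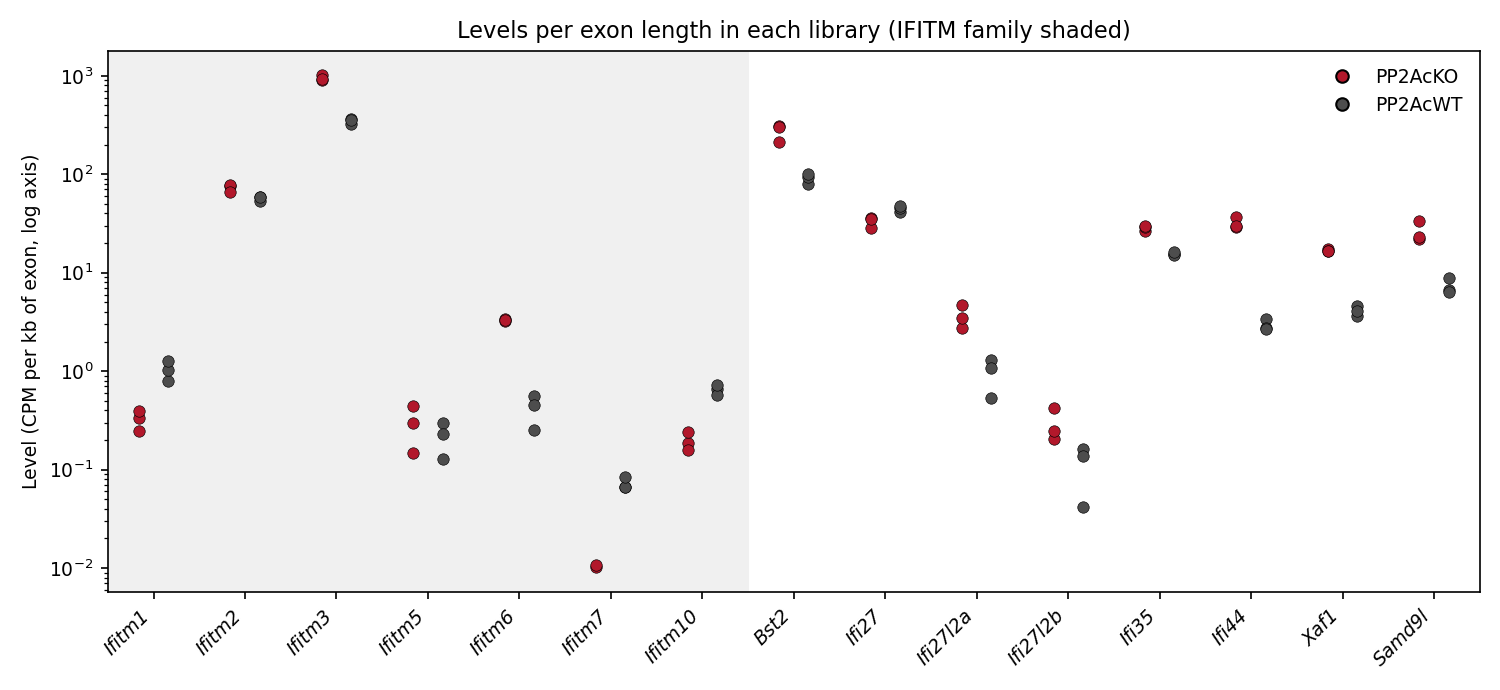
Level of the 10 genes and of 5 relatives in each library, in CPM per kilobase of exon (log axis), PP2AcKO in red at the left of each pair and PP2AcWT in grey. The IFITM family is shaded; Ifitm3 is the highest in both groups, Ifitm3 and Ifitm6 are higher in PP2AcKO and Ifitm1 and Ifitm10 lower. A library with 0 counts of Ifitm7 is not drawn on the log axis.

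Bst2 had 190, 277 and 273 CPM in PP2AcKO 1, 2 and 3, against 71.6, 83.8 and 89.9 CPM in PP2AcWT 1, 2 and 3. Library 1 was the lowest of its group on each side, and PP2AcKO 1 was still above every PP2AcWT library. The means were 247 ± 49.01 CPM in PP2AcKO and 81.8 ± 9.28 CPM in PP2AcWT (SD, n = 3), and the log2 fold change was 1.59 (standard error 0.15; adjusted p = 1.89e-05). Bst2 (ENSMUSG00000046718.8) lies on chromosome 8 from 71534255 to 71537456, minus strand, and shares no 50-base stretch with another annotated transcript. Its 150 bases before the start, which hold the overlapping repeats, are shown whole; GENCODE annotates no exon of the gene there.
Bst2 upstream stretch, chr8:71537473-71537622, minus strand: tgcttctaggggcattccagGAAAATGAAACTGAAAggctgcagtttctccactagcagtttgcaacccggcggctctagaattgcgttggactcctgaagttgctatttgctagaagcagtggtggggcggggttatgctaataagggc

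Other factors that restrict viruses at membranes showed mixed directions: of 7 tested, 4 rose, 1 fell and 2 did not pass. Rsad2, which encodes viperin, rose by 2.79 in log2 terms (standard error 0.08; adjusted p = 2.42e-08). Ch25h, which makes 25-hydroxycholesterol, rose by 1.25 (standard error 0.18; adjusted p = 0.000309). Serinc3 and Serinc5, whose human counterparts lower the infectivity of retroviruses, rose by 0.95 and 1.03. March8, a ubiquitin ligase that removes viral glycoproteins from the surface, fell by 0.25 (standard error 0.07; adjusted p = 0.0134). Its relative March2 had a log2 fold change of -0.25 (adjusted p = 0.0603). Ly6e, a lipid-anchored surface protein that limits coronavirus entry, averaged 304 ± 9.65 CPM in PP2AcKO and 332 ± 7.13 CPM in PP2AcWT (SD, n = 3; adjusted p = 0.0893). Zmpste24, a metalloprotease known to work with IFITM proteins, averaged 106 ± 13.6 CPM in PP2AcKO and 96.6 ± 5.61 CPM in PP2AcWT (SD, n = 3; adjusted p = 0.279).

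The neighbouring genes Ifi27 and Ifi27l2a, 1927 bases apart on chromosome 12, differed in direction. Ifi27 had 41.9, 53.0 and 51.6 CPM in PP2AcKO 1, 2 and 3, against 61.1, 66.0 and 70.4 CPM in PP2AcWT 1, 2 and 3. All PP2AcKO libraries were below all PP2AcWT libraries, and library 1 was the lowest on each side. The means were 48.8 ± 6.02 CPM in PP2AcKO and 65.8 ± 4.68 CPM in PP2AcWT (SD, n = 3), and the log2 fold change was -0.43 (standard error 0.10; adjusted p = 0.00506). Like that of Ifitm2, this call was lost against a fold change of 1.5.

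Ifi27l2a, its close relative, was far rarer. It had 57, 90 and 63 counts in PP2AcKO 1, 2 and 3, against 31, 11 and 20 counts in PP2AcWT 1, 2 and 3, or 1.28, 2.20 and 1.61 CPM against 0.607, 0.250 and 0.504 CPM. The groups did not overlap, although PP2AcKO 1 and PP2AcWT 1 came closest to each other. Ifi27l2a rose by 1.88 in log2 terms (standard error 0.32; adjusted p = 0.000837). Its relative Ifi27l2b, 7217 bases further on, was below the filter with 39 counts in PP2AcKO and 17 in PP2AcWT, a ratio of 2.48 (95% exact counting interval 1.37 to 4.68). Ifi27 (ENSMUSG00000064215.13) lies at 103434211 to 103440239, plus strand, and Ifi27l2a (ENSMUSG00000079017.3) at 103442167 to 103443680, minus strand.

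Ifi44, a cytoplasmic protein that slows proliferation when overexpressed in human cells, had the highest fold change of the 10 genes. It had 225, 178 and 183 CPM in PP2AcKO 1, 2 and 3, against 20.8, 16.8 and 16.3 CPM in PP2AcWT 1, 2 and 3. The lowest PP2AcKO library was several times the highest PP2AcWT library. The means were 195 ± 26.0 CPM in PP2AcKO and 18.0 ± 2.48 CPM in PP2AcWT (SD, n = 3), 10.9-fold higher (log2 fold change 3.44, SE 0.13, adjusted p = 8.57e-08). Only 1.84% of all tested genes had a higher fold change. Ifi44 (ENSMUSG00000028037.13) lies on chromosome 3 from 151730922 to 151749960, minus strand. Its relative Ifi44l, 8776 bases away, had 0 counts in every PP2AcKO library and 1, 4 and 0 counts in PP2AcWT 1, 2 and 3, so the groups overlapped and no fold is given.

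Xaf1 encodes a zinc finger protein that in human cells binds and opposes the caspase inhibitor XIAP. Its levels were 81.9, 77.5 and 77.5 CPM in PP2AcKO 1, 2 and 3, against 21.7, 16.9 and 19.3 CPM in PP2AcWT 1, 2 and 3. The 3 libraries of each group lay close together and the groups far apart, with a log2 fold change of 2.03 (standard error 0.10; adjusted p = 3.2e-07). Xiap itself averaged 141 ± 23.7 CPM in PP2AcKO and 146 ± 15.98 CPM in PP2AcWT (SD, n = 3), with a log2 fold change of -0.05 (standard error 0.12; adjusted p = 0.739). Xaf1 (ENSMUSG00000040483.15) lies on chromosome 11 from 72301629 to 72313733, plus strand.

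Samd9l, an antiviral protein that also restrains the growth of blood cells, had 180, 119 and 126 CPM in PP2AcKO 1, 2 and 3, against 47.9, 36.3 and 34.9 CPM in PP2AcWT 1, 2 and 3. Library 1 was the highest on each side. The means were 142 ± 33.8 CPM in PP2AcKO and 39.7 ± 7.14 CPM in PP2AcWT (SD, n = 3), and the log2 fold change was 1.83 (standard error 0.18; adjusted p = 2.43e-05). Samd9l (ENSMUSG00000047735.14) lies on chromosome 6 from 3372257 to 3399572, minus strand.

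Ifi35, a leucine zipper protein that forms a complex with Nmi, had 45.9, 50.8 and 51.5 CPM in PP2AcKO 1, 2 and 3, against 26.9, 25.9 and 27.8 CPM in PP2AcWT 1, 2 and 3. Every PP2AcKO library lay well above the PP2AcWT libraries, which hardly differed from each other. Ifi35 rose by 0.88 in log2 terms (standard error 0.08; adjusted p = 1.18e-05). Its partner Nmi had 21.6, 21.3 and 20.8 CPM in PP2AcKO, against 11.1, 9.07 and 10.98 CPM in PP2AcWT, and rose by 1.03 (standard error 0.10; adjusted p = 2.15e-05). Ifi35 (ENSMUSG00000010358.13) lies on chromosome 11 from 101448407 to 101458698, plus strand. Exons of the opposite-strand gene Gm11626 cover 16.8% of its exon bases, and without a stated strand setting their reads cannot be told apart; Gm11626 had 18 counts in PP2AcKO and 13 in PP2AcWT.

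Levels were ranked per kilobase of exon, over the union of GENCODE exons, since genes differ in length. Ifitm3 was the highest of the 10 in each group, at 941 ± 60.5 in PP2AcKO and 347 ± 22.1 in PP2AcWT (CPM per kilobase, SD, n = 3), above 99.8% and 99.6% of tested genes. In PP2AcKO it was followed by Bst2 at 273 ± 54.3 and Ifitm2 at 73.4 ± 6.56 CPM per kilobase. Next came Ifi27, Ifi44, Ifi35 and Samd9l, from 33.3 to 26.1 CPM per kilobase, whose neighbours in the order overlapped. Xaf1, Ifi27l2a and Ifitm1 closed the order at 16.8, 3.66 and 0.326 CPM per kilobase, each apart from the one before.

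In PP2AcWT the first 4 were the same, Ifitm3, Bst2, Ifitm2 and Ifi27, followed by Ifi35 at 15.6, Samd9l at 7.32, Xaf1 at 4.11 and Ifi44 at 2.93 CPM per kilobase, with no overlap between neighbours. Ifitm1 at 1.02 ± 0.239 and Ifi27l2a at 0.979 ± 0.397 CPM per kilobase came last and overlapped (SD, n = 3). Ifi44 thus stood at position 5 of the 10 in PP2AcKO and at position 8 in PP2AcWT. The place of Ifitm2 in both orders is uncertain, since exons of Gm45717 cover 40.9% of its exon bases. Summed over the 10 genes, the level was 1425, 1493 and 1428 CPM in PP2AcKO and 535, 500.1 and 542 CPM in PP2AcWT. Ifitm3 alone made up 42.7% to 45.9% of that sum in PP2AcKO and 43.6% to 45.8% in PP2AcWT.

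The rest of the pathway was read from the same fit, with lists drawn from knowledge of the interferon pathway. The lists were chosen with earlier results of these data known, so their shares are descriptions and not independent support. Of 75 other interferon-stimulated genes 74 matched a row and 73 were tested; 65 rose, 4 fell and 4 did not pass, and the median log2 fold change was 1.30. The share called higher was 89.0%, against the 31.9% of all tested genes. In this list 3 genes are also among the partners and membrane factors above. By p value the foremost were Slfn2 at 40.7 ± 1.48 CPM in PP2AcKO and 0.118 ± 0.0177 CPM in PP2AcWT, Zbp1, Oas2 and Oas1g (log2 fold changes 8.39, 4.25, 5.06 and 5.12). Those that fell were Ifit1bl1 (-1.60), the antiviral GTPase gene Mx1 (-1.06), Ifi47 (-0.46) and Pml (-0.22). Among these 73 genes 9 had a higher fold change than Ifi44 and none a lower one than Ifitm1. Ifit1bl1 (standard error 0.25) was within error of Ifitm1 at -1.64 (standard error 0.28), so the order of these genes is uncertain. Of the 73 genes 26 were above Bst2 and 32 above Ifitm3.

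Of 15 genes of interferon receptors and signalling, 5 of them also among the 73, 11 rose, 1 fell and 3 did not pass (median log2 fold change 0.80). Usp18, a brake on the receptor, rose by 2.39, and Stat2, Irf7 and Irf9 rose by 1.51, 2.39 and 1.17. The factor gene Irf1 fell by 0.42 (standard error 0.08; adjusted p = 0.0019). Interferon genes themselves were near the limit of detection: 15 of 21 had 0 counts in all libraries and none passed the filter. Ifnb1 had 13, 13 and 6 counts in PP2AcKO against 0, 1 and 0 in PP2AcWT, a ratio of 34.6 (95% exact counting interval 5.78 to 1409). Ifnz had 12 counts in PP2AcKO and 6 in PP2AcWT, Ifne 6 and 3, Ifna4 5 and 2, Ifnab 1 and 1, and Ifna2 0 and 1.

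**Figure D4:**
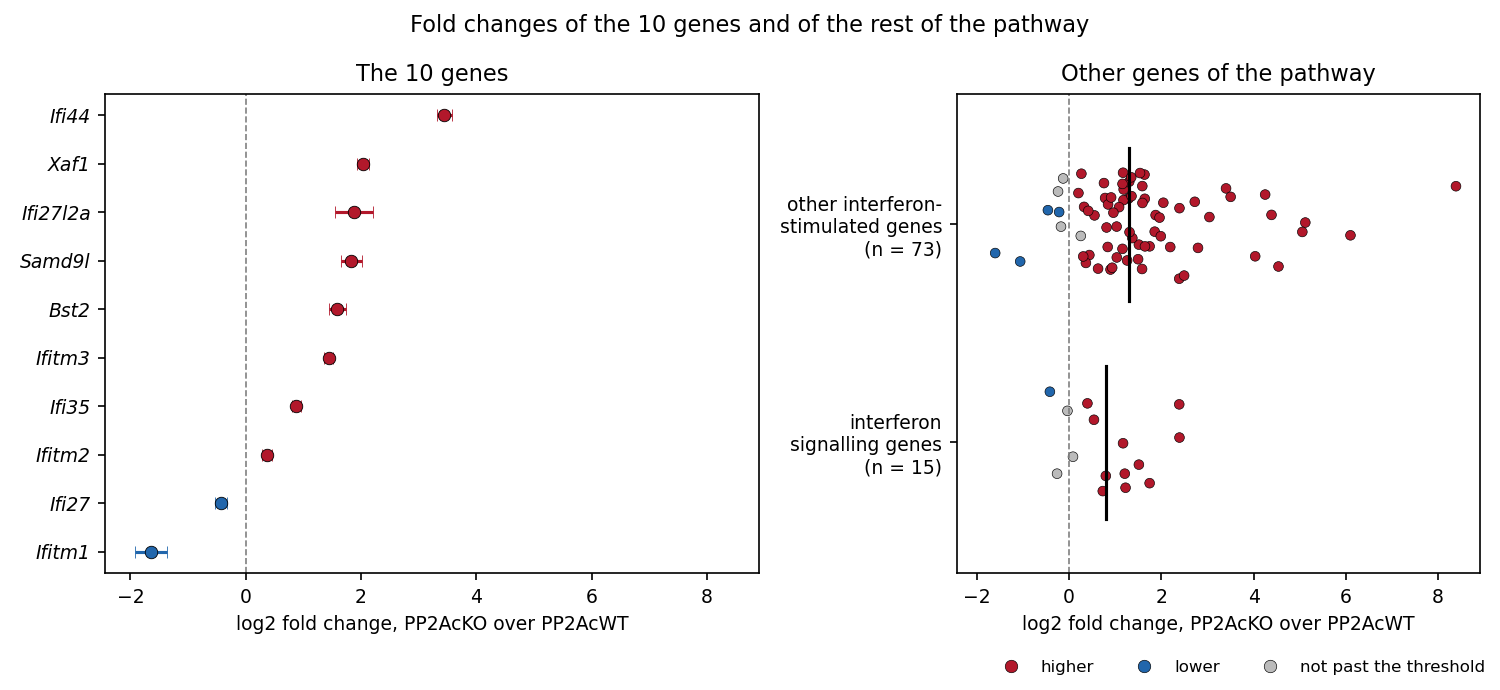
Log2 fold change, PP2AcKO over PP2AcWT, of the 10 genes (left, whiskers 1 standard error) and of 73 other interferon-stimulated and 15 interferon signalling genes (right, points scattered vertically for legibility, black bar the median). Red points were called higher in PP2AcKO, blue lower and grey neither. Ifi44 leads the 10 genes at 3.44. Ifitm1 at -1.64 is below every gene at the right, within error of Ifit1bl1 at -1.60.

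The tested protein-coding genes that flank the 10 genes moved in both directions. Of 13 such neighbours outside the set, the relative Ifitm6 among them, 6 rose, 2 fell and 5 did not pass. Their median log2 fold change was 0.27. Of all tested genes 31.9% were called higher and 32.1% lower, with a median of -0.01. By their pattern over the 6 libraries, the genes most like the mean standardised level of the 10 were Scmh1, Mirt1, Zfas1, Cldn23 and Hpx (Pearson's r from 0.998 to 0.999). Such values mostly restate the difference between the groups, since 1850 of 14867 genes had an r over 0.95.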

How the data were processed

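The deposited table holds the authors' unnormalized counts for each gene symbol and library. Tools named in the submitters' processing notes, with no order or role, are STAR 2.7.1a, fastp 0.20.0, limma 3.48.3, HTSeq 0.11.2 and edgeR 3.34.0, and the builds mm10 and GRCm38. Annotation release and strand setting: not given in the sources used here. Columns were matched to samples by title, with 0 columns of other samples. Nothing says that replicates were separate cultures, so p-values measure only how the 6 libraries vary, possibly for technical reasons; no pair agreed within sampling noise (chi-square per degree of freedom at least 3.41).

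Genes kept by filterByExpr (14877, holding 99.94% or more of each library's counts) were scaled by TMM and the groups compared by edgeR's quasi-likelihood test (edgeR 4.0.16, R 4.3.3), adjusted by Benjamini-Hochberg at 0.05. The fit was also run on simulated counts. In these few genes changed, all genes had the same variability setting and no library stood apart. The real data differ in this, so that run does not show how the fit performs here. CPM uses TMM-scaled library sizes; standard errors come from the fold change and F. Counting intervals and floors (3 counts) cover counting error only. Alternatives were DESeq2 1.42.0, limma-voom (limma 3.58.1), other scaling, no filter, a block by replicate number, left-out libraries and a fold threshold. Deviations of same-numbered libraries from their group means correlated at 0.443, 0.161 and 0.15 for numbers 1, 2 and 3. Within a group these deviations cancel out, so the values for numbers 2 and 3 also carry the pattern of libraries 1. Libraries of different numbers were not compared, so these values cannot show that numbers 2 and 3 are pairs. The numbers come from the titles and pair libraries only in the block fit, not in the main fit.

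The members and lists were chosen with earlier results of these data known. Named genes are all 10 members, their relatives, partners, other membrane factors and interferons with counts, and from each pathway list the 4 smallest adjusted p values and the calls against its direction. Positions are from GENCODE M21 (GRCm38), windows from RefSeq (GRCm38.p6). No interval is given for shares within the IFITM counts, where the spread over libraries is printed. Some genes of the lists are not reported here by name.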

Additional observations from a re-analysis of the deposited data

How the results depend on the processing

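Under 14 other settings all 10 genes kept their direction, and 138 of 140 values kept their side of the threshold; the exceptions were Ifitm2 and Ifi27 against a fold change of 1.5 (adjusted p = 1 for each). Of all genes that test called 3966, against 9525 in the test against no change. With the replicate number as a block, which pairs same-numbered libraries, all 10 genes were called, as without it, with Bst2 at a log2 fold change of 1.58 and Samd9l at 1.83. The block called 71 of the 73 other interferon-stimulated genes, 13 of the 15 signalling genes and 11495 genes in all. Over all settings the log2 fold change of Ifi27l2a ran from 1.59 to 2.36, the widest range of the 10 genes, and that of Ifitm1 from -1.81 to -1.45. The share of Ifitm3 in the IFITM counts stayed higher in PP2AcKO by 6.70 to 7.31 points with libraries left out. Upper-quartile factors moved the median of all genes to -0.07. Ifitm1 and Ifi27l2a rest on 11 to 90 counts per library, so their size is less precise than that of the other 8 genes.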

Other observations

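Libraries numbered 1 shared a pattern over part of these genes in both groups. Against the mean of libraries 2 and 3 on the log2 scale, Samd9l was 0.56 higher in PP2AcKO 1 and 0.43 higher in PP2AcWT 1, and Ifi44 was 0.32 and 0.33 higher. Bst2 was lower by that measure, at -0.53 in PP2AcKO 1 and -0.28 in PP2AcWT 1, and so were Ifitm1 at -0.50 in each and Ifi27 at -0.32 and -0.16. In all, 4 of the 10 genes were higher and 3 lower in library 1 of both groups, and 3 differed in sign between the groups. These 3 were Ifi27l2a, at -0.54 in PP2AcKO 1 and 0.70 in PP2AcWT 1, Ifitm3 at -0.10 and 0.09, and Ifi35 at -0.155 and 0.003. The share of all tested genes with the same sign in both groups is not given here. The 3 genes with the longest exons, Ifi44, Samd9l and Xaf1 (6129, 5427 and 4689 bases), were among the 4 that were higher. Over the 10 genes Spearman's rho of this difference with exon length was 0.61 in PP2AcKO and 0.14 in PP2AcWT, and over 14763 genes 0.17 and 0.04, given as a description. Its cause was not tested. Without both libraries numbered 1 the log2 fold changes were 1.78 for Samd9l, 3.45 for Ifi44 and 1.67 for Bst2.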
